A study of Homo sapiens with 4 samples.

Results

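The genes described here are 10 reported targets of the transcription factor DUX4, namely ZSCAN4, LEUTX, KLF17, ZNF280A, MBD3L2, CCNA1, KHDC1, RFPL1, RFPL2 and FAM151A, out of 18334 genes measured. They were chosen by name, with their ratios in these data already known, and all array features whose platform annotation gives one of these symbols were taken, 12 of 43376 features with a value. ZSCAN4 and KHDC1 had 2 features each and the others 1. LNCaP, an androgen-responsive prostate carcinoma line that was set up from a metastatic lymph node, was kept without serum for 24 h. The cells then received 5-azacytidine at 1 µM, for 48 h or for 24 h, or the solvent dimethyl sulphoxide (DMSO) for the same time. Each 2-colour Agilent array carried azacytidine RNA labelled with Cy5 and DMSO RNA of the same time labelled with Cy3, with 2 arrays at 48 h and 2 arrays at 24 h. All samples came from this single line, and nothing in the labels says that the replicates were separate cultures, so p-values reflect only how far these arrays differ, and that can be technical.

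DUX4 is a double homeobox protein encoded within a macrosatellite repeat near a chromosome end. It is made for a short time in the cleavage-stage human embryo, where it turns on genes of the first wave of embryonic transcription. Somatic cells keep the repeat silent through DNA methylation and repressive chromatin, and loss of that silencing in skeletal muscle causes facioscapulohumeral dystrophy. 5-azacytidine is a cytidine analogue that traps DNA methyltransferases and so lowers DNA methylation in dividing cells. Expression of DUX4 itself was not analysed here.

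The sequences before the gene starts differed widely in CpG content, the dinucleotide on which DNA methylation acts. RefSeq windows (GRCh38.p14) of 300 bases, 250 before and 50 after a gene start, were matched by symbol for 9 of the 10 genes, RFPL1 having none, and gave 12 windows. The median over 35116 windows of all genes was 14 CpG, and 6 of the 12 windows held no more than that. ZSCAN4 had 2 CpG in its window, FAM151A had 4, MBD3L2 and ZNF280A had 5 each, and the 2 LEUTX windows had 5 and 4. CCNA1 had 35, the 2 KHDC1 windows had 32 and 25, the RFPL2 windows had 17 and 19, and KLF17 had 18. The 250 bases before the start of ZSCAN4 (chr19:57668685-57668934, plus strand), with 2 CpG, and of CCNA1 (chr13:36431705-36431954, plus strand), with 31, show the contrast between the member with the highest ratio at 48 h and the member with the highest ratio at 24 h. Methylation was not measured, and whether CpG content goes with the ratios or their times was not tested. CpG is in capitals.
ZSCAN4: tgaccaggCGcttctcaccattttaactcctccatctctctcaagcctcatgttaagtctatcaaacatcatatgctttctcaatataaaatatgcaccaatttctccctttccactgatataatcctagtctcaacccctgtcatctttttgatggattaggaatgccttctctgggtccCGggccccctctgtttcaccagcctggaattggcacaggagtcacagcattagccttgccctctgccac
CCNA1: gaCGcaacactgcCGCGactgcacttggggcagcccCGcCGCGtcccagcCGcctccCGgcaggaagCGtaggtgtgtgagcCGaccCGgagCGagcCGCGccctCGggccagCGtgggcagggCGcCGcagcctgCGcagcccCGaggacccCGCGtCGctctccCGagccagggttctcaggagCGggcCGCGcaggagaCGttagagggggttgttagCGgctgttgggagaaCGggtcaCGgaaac

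DUX4 binds a pair of adjoining homeobox sites, and 3 spellings of such a pair were searched on both strands, chosen after the sequences had been seen. TAA and AATCA with TCT between them were in none of the 12 windows and in 0.0285% of all windows. TAA and AATCA with any 3 bases between, which takes in the first spelling, were in the MBD3L2 window and in 1 of the LEUTX windows, and in 0.888% of all windows. AATC and AATCA with any 1 base between, a spelling that shares letters with the other two, were in the ZNF280A window and in 0.253% of all windows. These matches describe letters and were not tested as binding sites. The 250 bases before the starts of MBD3L2 (chr19:7049071-7049320, plus strand), LEUTX (chr19:39778604-39778853, plus strand) and ZNF280A (chr22:22520271-22520520, minus strand) are given with the match in capitals. In MBD3L2 and LEUTX the spelling is read on the opposite strand.
MBD3L2: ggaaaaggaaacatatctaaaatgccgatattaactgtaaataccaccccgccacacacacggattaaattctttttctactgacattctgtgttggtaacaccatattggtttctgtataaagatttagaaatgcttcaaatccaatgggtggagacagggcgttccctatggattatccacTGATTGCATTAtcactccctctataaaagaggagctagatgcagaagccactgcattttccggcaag
LEUTX: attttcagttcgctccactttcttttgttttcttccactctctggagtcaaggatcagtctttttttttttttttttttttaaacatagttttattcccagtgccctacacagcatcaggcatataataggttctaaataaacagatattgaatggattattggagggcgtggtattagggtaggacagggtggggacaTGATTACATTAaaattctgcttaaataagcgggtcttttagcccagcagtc
ZNF280A: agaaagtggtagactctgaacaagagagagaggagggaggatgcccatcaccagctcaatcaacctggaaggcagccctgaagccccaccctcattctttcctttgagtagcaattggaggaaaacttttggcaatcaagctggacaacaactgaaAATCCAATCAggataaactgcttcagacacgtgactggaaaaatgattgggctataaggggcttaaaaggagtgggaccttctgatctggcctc

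Every member had a higher signal in azacytidine than in DMSO on every array. All values below are log2 ratios of azacytidine over DMSO, so that 1 is a doubling and 0 is no difference, and a time's mean is given ± SD with n = 2 arrays. Over the 10 genes the ratios ran from 1.89 to 6.09, with a median of 3.86, on the first 48 h array and from 2.09 to 6.88, with a median of 3.92, on the second. At 24 h they ran from 1.42 to 5.76 with a median of 3.26, and from 1.53 to 6.43 with a median of 3.46. The median over all genes was 0 on each array. All 10 genes stood above 1 on all 4 arrays, as did 5.19% of all genes, and 7 stood above 2 on all 4, as did 2.07%. Because the genes were picked with these ratios in view, the values are a description and carry no test. The dyes were not swapped, so an effect of dye on a feature and an effect of the drug cannot be told apart. Single-channel intensities were not analysed here, so the ratios do not tell how low the DMSO signal was. In RNA from whole dishes, a larger share of cells with a transcript and more transcript per cell cannot be told apart either.

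**Figure D1:**
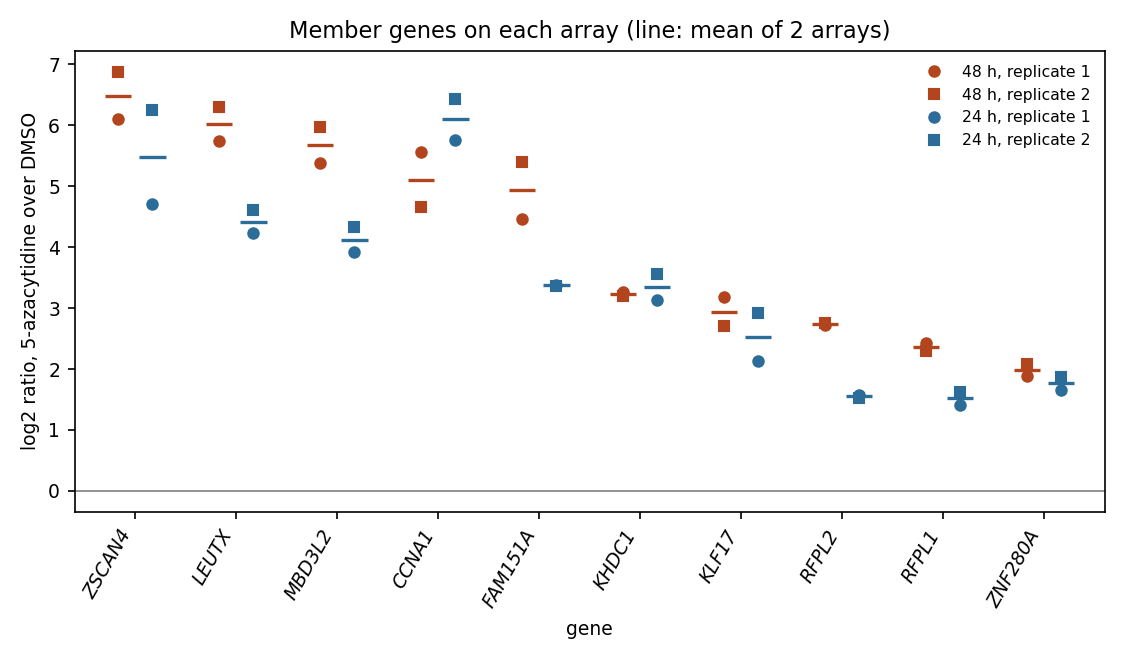
Log2 ratios of azacytidine over DMSO (vertical axis) for the 10 member genes (horizontal axis, in order of the 48 h mean), with 1 point per array and a line at the mean of the 2 arrays of a time. Every point lies above 0, from 1.42 for RFPL1 at 24 h to 6.88 for ZSCAN4 at 48 h, and CCNA1 has both 48 h points below both 24 h points.

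Among the transcription factors, ZSCAN4, a SCAN domain and zinc finger protein that marks cleavage-stage embryos, had ratios of 6.09 and 6.88 at 48 h, against 4.70 and 6.25 at 24 h. The ranges of the times overlapped. Its mean of 6.49 ± 0.55 at 48 h, an 89.7-fold difference, ranked 12 among the 18334 genes, and its mean of 5.48 ± 1.09 at 24 h ranked 18. Both features, designed on one transcript, were high, with means of 6.96 and 6.01 at 48 h and 5.61 and 5.34 at 24 h. LEUTX, a paired-like homeobox factor of the early human embryo, had 5.74 and 6.31 at 48 h, against 4.23 and 4.61 at 24 h. Both 48 h arrays were thus above both 24 h arrays, with means of 6.03 ± 0.40 and 4.42 ± 0.27.

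KLF17, a Krüppel-like factor of the human preimplantation embryo, had lower ratios of 3.18 and 2.70 at 48 h, against 2.12 and 2.91 at 24 h. Its times overlapped, with means of 2.94 ± 0.34 at 48 h and 2.52 ± 0.56 at 24 h. ZNF280A, a zinc finger gene, was the lowest member at 48 h, with 1.89 and 2.09, against 1.66 and 1.87 at 24 h. The 48 h arrays lay just above those of 24 h, and the means were 1.99 ± 0.14 and 1.76 ± 0.15, or 3.98-fold and 3.40-fold.

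MBD3L2 encodes a relative of the methyl-DNA binding protein family that binds the NuRD repressor complex and, in human muscle cells, opposes repression of the DUX4 repeat. Its ratios were 5.38 and 5.98 at 48 h, against 3.92 and 4.32 at 24 h. The times did not overlap, with means of 5.68 ± 0.42 and 4.12 ± 0.28. CCNA1 encodes the germline A-type cyclin, which male meiosis in mice requires. It was the one member with both 48 h arrays below both 24 h arrays, at 5.56 and 4.65 at 48 h against 5.76 and 6.43 at 24 h. Its mean of 6.10 ± 0.48 at 24 h was a 68.5-fold difference and ranked 5 among all genes, while the mean of 5.10 ± 0.64 at 48 h, 34.4-fold, ranked 63.

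KHDC1, a KH domain gene, had gene ratios of 3.26 and 3.20 at 48 h, against 3.14 and 3.56 at 24 h. The mean was 3.23 ± 0.05 at 48 h and 3.35 ± 0.30 at 24 h, but its 2 features had opposite orders of the times. One averaged 3.69 at 48 h and 2.98 at 24 h, and the other 2.77 at 48 h and 3.71 at 24 h, although both were designed on one transcript. The time course of KHDC1 is thus not settled by its features.

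RFPL1 and RFPL2, ret finger protein-like genes on chromosome 22, had nearly the same profile. RFPL2 had ratios of 2.72 and 2.75 at 48 h, against 1.57 and 1.53 at 24 h. RFPL1 had 2.43 and 2.29 at 48 h, against 1.42 and 1.63 at 24 h. For both genes the 48 h arrays were above the 24 h arrays, and over the 4 arrays the genes differed by a root mean square of 0.29, the smallest such difference of any pair of members. Whether each feature reads only its own gene was not tested, and the same holds for MBD3L2, which has close copies beside it. FAM151A, a gene without a settled function, had 4.47 and 5.40 at 48 h, against 3.38 and 3.36 at 24 h. Its 24 h arrays differed by little (SD 0.01) and its 48 h arrays by much more (SD 0.66).

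The members differed among themselves more than the arrays did. In the order of the 48 h means, ZSCAN4, LEUTX, MBD3L2, CCNA1 and FAM151A (4.93 ± 0.66) formed a run in which the arrays of each neighbouring pair overlapped. KHDC1 followed with both arrays below those of FAM151A. KLF17 and RFPL2 (2.74 ± 0.02) overlapped, while RFPL1 (2.36 ± 0.10) was below RFPL2, and ZNF280A was below RFPL1. At 24 h CCNA1 was first and RFPL1 (1.52 ± 0.15) last.

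Between the times, 6 members had both 48 h arrays above both 24 h arrays, against 34.4% of all genes, 1 had both below, against 36.7%, and 3 overlapped. The median difference of the members, 48 h minus 24 h, was 0.92, and 8 of 10 were positive. This count depended on how the arrays were scaled, and the 48 h ratios were spread more widely over all genes (SD 1.07 and 1.28) than those at 24 h (SD 0.915 and 0.954). With the arrays brought to one spread, 5 of 10 were positive with a median difference of -0.11, and with quantile normalization 7 of 10 with a median of 0.40. LEUTX (1.61 as deposited, 0.09 with one spread), MBD3L2 (1.55 and 0.12), FAM151A (1.56 and 0.32), RFPL2 (1.19 and 0.59) and RFPL1 (0.84 and 0.31) had the larger ratio at 48 h under each of these scalings. CCNA1 had the smaller one (-0.99 and -2.55), also with quantile normalization (-1.95). KHDC1 did too (-0.12, -1.06 and -0.51), but its 2 features had opposite orders of the times. With one spread, the differences of LEUTX and MBD3L2 were below their SDs between arrays as deposited. These were 0.40 at 48 h and 0.27 at 24 h for LEUTX, and 0.42 and 0.28 for MBD3L2. That of FAM151A was below its 48 h SD (0.66). ZSCAN4 (1.01 and -0.74), KLF17 (0.42 and -0.31) and ZNF280A (0.23 and -0.32) changed sign with the spread.

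**Figure D2:**
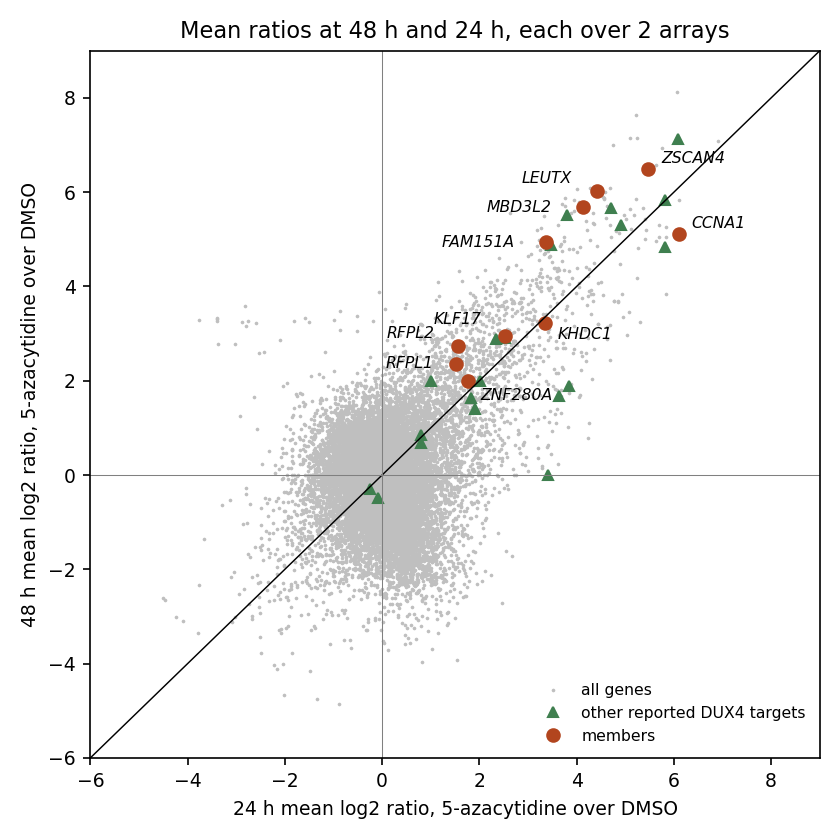
Mean log2 ratio at 48 h (vertical axis) against that at 24 h (horizontal axis), each over 2 arrays, for all 18334 genes (grey), the 10 members (circles) and 20 other reported DUX4 targets (triangles), with the line of equal ratios. The members all lie where both ratios are above 0, CCNA1 below the line and LEUTX, MBD3L2 and FAM151A above it by 1.55 to 1.61.

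A majority of the other measured DUX4 targets also rose. Of 55 such genes listed, 20 had a feature that named them alone. Features with several symbols or none were left out. Limma was fitted over all 18334 genes with Benjamini-Hochberg adjustment and a threshold of 0.05. At 48 h it called 13 of the 20 higher and 0 lower, beside 18.2% of all genes higher and 20.7% lower, 38.8% together. At 24 h it called 14 higher and 0 lower, where 14.3% were called higher and 9.97% lower, 24.3% together. All 13 were called at both times. RFPL4A (-0.31 at 48 h and -0.24 at 24 h) and ZNF217 (-0.48 and -0.08) had means below 0 and did not pass. The medians of the list were 1.99 at 48 h and 2.97 at 24 h. The list was put together with earlier results of these data known, so its counts and medians are a description and no independent check on the members. Many genes of the list are close copies of each other, so that neither the counts nor the medians are independent over genes. The calls rest on both 24 h arrays. Without 24 h replicate 1 limma called 0 of them at either time (15 higher at an unadjusted p under 0.05 at 48 h and 16 at 24 h). Without 24 h replicate 2 it also called 0 (15 at 48 h and 13 at 24 h).

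TRIM43, a cleavage-stage member of the tripartite motif family, had the highest ratio of these genes, with 6.98 and 7.26 at 48 h, against 5.74 and 6.43 at 24 h (limma adjusted p = 0.0073 and 0.0134). Its relative TRIM49 had 5.83 ± 0.10 at 48 h and 5.82 ± 0.43 at 24 h (limma adjusted p = 0.0073 and 0.0133). PRAMEF2, of a family of leucine-rich repeat proteins that has expanded in primates, had 4.84 ± 0.17 at 48 h and 5.81 ± 0.19 at 24 h (limma adjusted p = 0.0071 and 0.0126). PRAMEF1 averaged 5.30 ± 0.33 at 48 h and 4.91 ± 0.02 at 24 h (limma adjusted p = 0.0071 and 0.0131). Its 2 features went opposite ways in time, at 6.70 and 3.90 at 48 h and at 4.56 and 5.25 at 24 h. SNAI1, which encodes the Snail repressor of epithelial genes, rose by 2.89 ± 0.04 at 48 h and 2.34 ± 0.14 at 24 h (limma adjusted p = 0.0071 and 0.0131).

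RFPL4B was listed at exactly 0 on both 48 h arrays, against 3.35 and 3.46 at 24 h, where limma called it higher (adjusted p = 0.0126). What an exact 0 stands for is not stated with the values, so its times are not compared. DEFB103B, a beta-defensin gene named here after its values were seen, was the only gene of the list called higher at 48 h than at 24 h, with 1.91 and 2.07 at 48 h, against 0.89 and 1.13 at 24 h (limma adjusted p of the difference = 0.0421). Over all genes 9.83% were called higher at 48 h than at 24 h and 13.1% lower, 23.0% together.

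**Figure D3:**
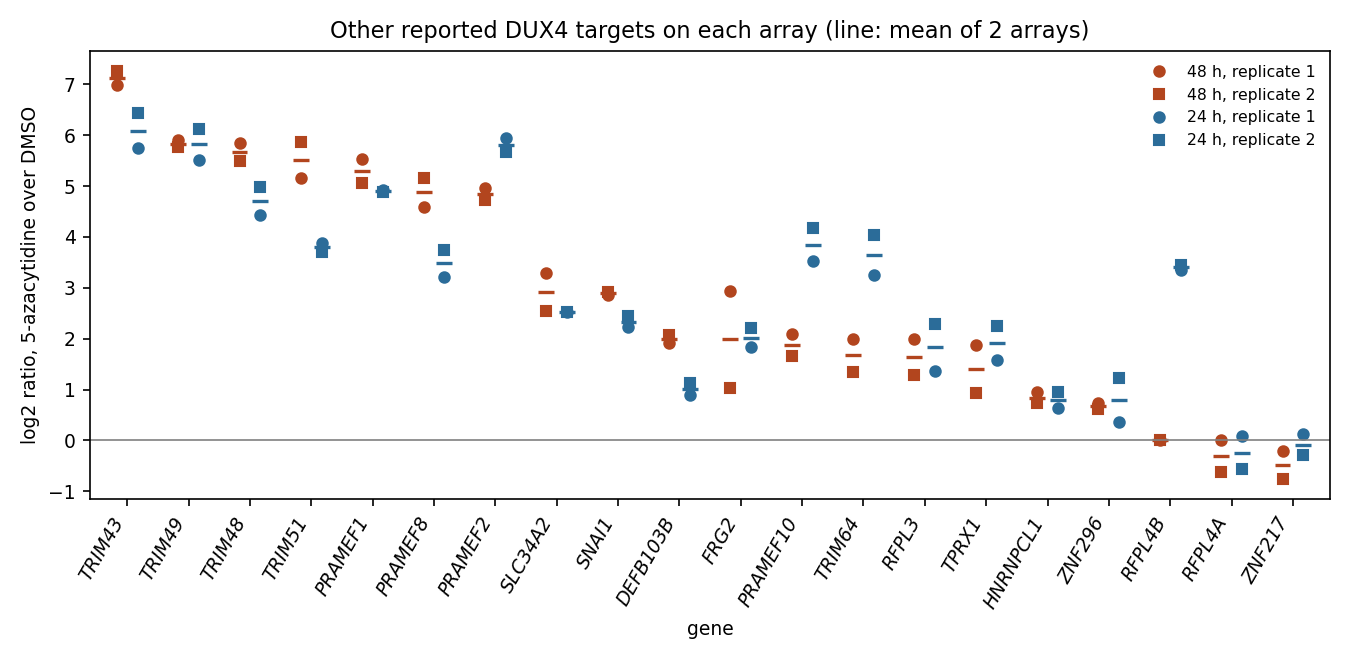
Log2 ratios of azacytidine over DMSO (vertical axis) for the 20 other reported DUX4 targets (horizontal axis, in order of the 48 h mean), with 1 point per array and a line at each time's mean. TRIM43 is highest at 48 h, RFPL4B is listed at 0 at 48 h and near 3.40 at 24 h, and RFPL4A and ZNF217 lie around 0.

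The median ratio of the members' paralogs was near 0. Of 46 paralogs listed, 42 were measured, and limma called 6 higher and 9 lower at 48 h, beside 18.2% and 20.7% of all genes, and 6 higher and 8 lower at 24 h, beside 14.3% and 9.97%. The shares of the paralogs called higher were thus near those of all genes. Their medians were 0.03 at 48 h and -0.10 at 24 h. Of these 42, 1 stood above 1 on all 4 arrays, namely KLF4, a factor of epithelial differentiation and reprogramming, at 1.69 ± 0.22 at 48 h and 2.84 ± 0.05 at 24 h (limma adjusted p = 0.0104 and 0.0133). CCNA2, the A-type cyclin of dividing somatic cells, fell by 1.68 ± 0.19 at 48 h and by 1.33 ± 0.09 at 24 h (limma adjusted p = 0.0101 and 0.0192), whereas CCNA1 stood at 5.10 and 6.10. Its 2 arrays were below 0 at each time.

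The 16 other KLF genes had means between -1.19 and 1.77 at 48 h and between -1.12 and 2.84 at 24 h, against 2.94 and 2.52 for KLF17. Limma called 2 of these KLF genes higher and 1 lower at 48 h (all genes 18.2% and 20.7%). At 24 h it called 5 higher and 3 lower (all genes 14.3% and 9.97%), larger shares than in all genes. KLF5, named here after its values were seen, was at 2.45 at 24 h (limma adjusted p = 0.0291), close to KLF17. At 48 h KLF5 was at 1.23 and did not pass (limma adjusted p = 0.0564). The 16 other ZSCAN genes had means between -1.72 and 1.05 at 48 h and between -1.03 and 0.60 at 24 h, against 6.49 and 5.48 for ZSCAN4. Of these, limma called 4 higher and 6 lower at 48 h (all genes 18.2% and 20.7%) and 1 higher and 2 lower at 24 h (all genes 14.3% and 9.97%). ZSCAN1 (1.00 ± 0.03 at 48 h, limma adjusted p = 0.0084) and ZSCAN5A (1.05 ± 0.13, limma adjusted p = 0.0104) were among the higher ones at 48 h, and ZSCAN16 (-0.36 ± 0.06 at 48 h and -1.02 ± 0.06 at 24 h, limma adjusted p = 0.0253 and 0.0145) was lower at both times. The features of ZSCAN16 differed at 48 h, at 0.02 and -0.73, and without either 48 h array it was no longer called there. MBD3, the NuRD subunit to which MBD3L2 is related, was at -0.09 ± 0.01 at 48 h, which did not pass (limma adjusted p = 0.121), and fell by 0.62 ± 0.01 at 24 h (limma adjusted p = 0.0151).

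**Figure D4:**
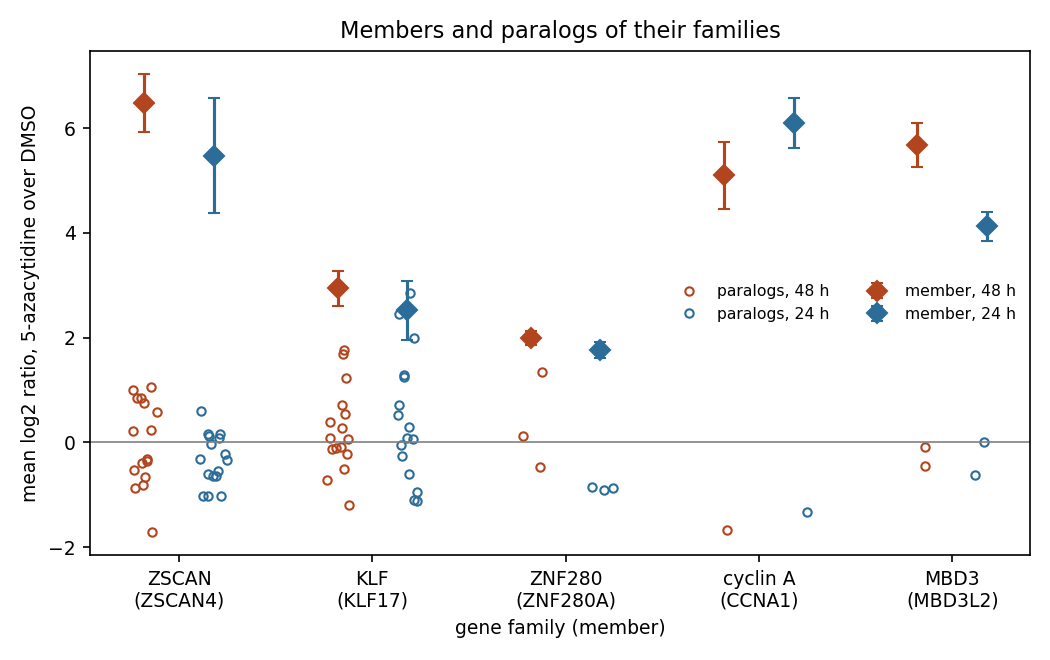
Mean log2 ratio of azacytidine over DMSO (vertical axis) for 5 gene families (horizontal axis), with the member as a filled diamond with SD (n = 2 arrays) and its measured paralogs as open circles, 48 h left of 24 h. ZSCAN4, CCNA1, MBD3L2 and ZNF280A lie above every paralog shown at each time, and KLF17 does so at 48 h, while at 24 h KLF4 (2.84) lies above it (2.52).

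A list of DUX4 and genes that control it or its repeat held 22 genes. Of these, 21 had a feature that named them alone, all but DUX4 itself. Features with several symbols or none were left out. Limma called 1 higher and 9 lower at 48 h, where 18.2% and 20.7% of all genes were, and 2 higher and 2 lower at 24 h, where 14.3% and 9.97% were, so that the 24 h counts were no larger than in all genes. DPPA2, a germline and early embryo factor that activates the mouse counterpart of DUX4, rose by 1.12 ± 0.05 at 48 h (limma adjusted p = 0.0089) and was at 0.32 ± 0.09 at 24 h. DPPA2 passed narrowly at 24 h (limma adjusted p = 0.0471) and did not pass there with another centring (0.0900), one spread (0.0824), quantile normalization (0.0582), zeros removed (0.112), robust moderation (0.0528) or the 24 h arrays alone (0.0775). Its times differed (limma adjusted p = 0.0309), but not with one spread (0.0727) or without 48 h replicate 2 (0.0663). DPPA4, named here after its values were seen, was listed at 0 on both 48 h arrays and at 0 and -0.30 at 24 h. DNMT1, the maintenance DNA methyltransferase, fell by 0.68 ± 0.05 at 48 h and 0.62 ± 0.06 at 24 h (limma adjusted p = 0.0116 and 0.0192). CHAF1B, a subunit of the histone chaperone CAF-1, fell by 0.97 ± 0.11 and 1.23 ± 0.08 (limma adjusted p = 0.0118 and 0.0156). TRIM28, the corepressor of KRAB zinc finger proteins, was at -1.69 and -1.52 at 48 h, against 0.72 and 0.53 at 24 h. Limma called it lower at 48 h (adjusted p = 0.0096), higher at 24 h (adjusted p = 0.0376) and different between them (adjusted p = 0.0238). Its 2 features disagreed, since one designed on an expressed sequence tag averaged -2.64 at 48 h and 1.44 at 24 h, and one on the RefSeq transcript -0.57 at 48 h and -0.19 at 24 h. The higher value of TRIM28 at 24 h thus came from the first feature alone, and it did not pass with one spread (limma adjusted p = 0.0925), with quantile normalization (0.0976) or without either 48 h array (0.0618). CHD4, the NuRD remodeller, fell by 1.18 ± 0.11 at 48 h (limma adjusted p = 0.0089) and was at 0.26 ± 0.02 at 24 h, where it did not pass (limma adjusted p = 0.0707).

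Some markers of germ cells were also called. Of 10 germ cell markers, limma called 5 higher and 0 lower at 48 h, beside 18.2% and 20.7% of all genes, and 3 higher and 1 lower at 24 h, beside 14.3% and 9.97%. DAZL, an RNA-binding protein of germ cells, had 6.37 and 3.75 at 48 h, against 5.19 and 6.18 at 24 h (limma adjusted p = 0.0378 and 0.0429). DDX4, the germ cell helicase Vasa, was at 1.72 ± 0.38 and 2.14 ± 0.41 (limma adjusted p = 0.0292 and 0.0303), STRA8, a gatekeeper of meiosis, rose by 2.90 ± 0.36 at 48 h (limma adjusted p = 0.0272) and was at 2.07 ± 0.83 at 24 h, which did not pass (limma adjusted p = 0.0583). DAZL was not called at 48 h without 48 h replicate 1, nor were STRA8 and DDX4 without either 48 h array. DAZL also did not pass at 48 h with one spread (limma adjusted p = 0.0763) or at 24 h with robust moderation (0.0566). DDX4 did not pass at 24 h from the 24 h arrays alone (limma adjusted p = 0.0533). ACRV1, an acrosomal protein gene of spermatids, was at 0.36 ± 0.42 at 48 h, which did not pass, and fell by 1.43 ± 0.06 at 24 h (limma adjusted p = 0.0356). PRM1, a protamine gene, rose by 1.83 ± 0.35 at 48 h (limma adjusted p = 0.0148) and was at -0.82 ± 0.05 at 24 h, which did not pass (limma adjusted p = 0.0576). PRM2, named after its values were seen, was at -0.04 at 48 h and -0.42 at 24 h and did not pass, and TNP1 was listed at 0 on all arrays. SYCP3, of the meiotic chromosome axis, was at 5.23 ± 0.21 and 4.87 ± 0.20 (limma adjusted p = 0.0071 and 0.0126).

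Of 8 pluripotency markers, limma called 2 higher and 0 lower at 48 h (all genes 18.2% and 20.7%) and 1 higher and 1 lower at 24 h (all genes 14.3% and 9.97%). With so few markers, the counts called higher were near the shares of all genes. POU5F1 rose by 1.00 ± 0.33 at 48 h (limma adjusted p = 0.0308) and SOX2 by 0.90 ± 0.36 (limma adjusted p = 0.0401), while NANOG was at 0.52 ± 0.50 at 48 h, which did not pass (limma adjusted p = 0.197), and was lower at 24 h, at -1.85 ± 0.23 (limma adjusted p = 0.0361). CRIPTO rose by 0.51 ± 0.12 at 24 h (limma adjusted p = 0.0344), but not without either 48 h array (0.0654). The 2 features of SOX2 averaged 1.34 and 0.47 at 48 h, and those of CRIPTO 0.80 and 0.22 at 24 h. With robust moderation SOX2 was no longer called at 48 h (limma adjusted p = 0.0518). Of 10 prostate luminal markers 8 were analysed, with 4 called higher and 3 lower at 48 h, beside 38.8% of all genes called either way, and 2 higher and 2 lower at 24 h, beside 24.3%. FOLH1, the prostate-specific membrane antigen, was lower at both times, at -1.70 ± 0.02 at 48 h and -1.26 ± 0.14 at 24 h (limma adjusted p = 0.0079 and 0.0157). HOXB13 was lower too, at -1.33 ± 0.19 at 48 h and -1.52 ± 0.05 at 24 h (limma adjusted p = 0.0118 and 0.0162). KLK2 was higher at both times, at 1.34 ± 0.11 and 1.52 ± 0.08 (limma adjusted p = 0.0092 and 0.0145). A feature of KLK2 was listed at 0 on all arrays. Its other features averaged 1.15 and 2.88 at 48 h and 2.15 and 2.41 at 24 h. KLK3, prostate-specific antigen, averaged 1.16 ± 0.06 at 48 h and 1.17 ± 0.07 at 24 h, but its 3 features disagreed, at 0.58, 3.03 and -0.12 at 48 h and at -0.39, 1.61 and 2.28 at 24 h. With the median of features KLK3 was at 0.58 at 48 h and was no longer called (limma adjusted p = 0.110). Ratios give no levels, so the arrays do not show how strongly either state's markers were present. The part of any of these markers in the members' ratios was not tested.

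The members lay on 5 chromosomes, 3 on chromosome 19, 3 on chromosome 22, 2 on chromosome 1 and 1 each on chromosomes 6 and 13. The nearest measured gene on each side, by start position, gave 20 neighbours, with medians of 0 at 48 h and -0.05 at 24 h. Limma called 4 of the 20 higher and 4 lower at 48 h, beside 18.2% and 20.7% of all genes, and 4 higher and 3 lower at 24 h, beside 14.3% and 9.97%. The shares at 48 h were thus near those of all genes. SLC5A1, the intestinal sodium-glucose transporter gene beside RFPL2, had 4.15 and 3.82 at 48 h, against 4.10 and 4.01 at 24 h (limma adjusted p = 0.0071 and 0.0127). RFPL1S, an RNA antisense to RFPL1, had 4.01 and 2.67 at 48 h, against 3.41 and 3.78 at 24 h (limma adjusted p = 0.0248 and 0.0318). With one spread RFPL1S did not pass at 48 h (limma adjusted p = 0.058). DPPA5, a pluripotency gene beside KHDC1, was at 2.44 ± 0.19 and 2.82 ± 0.59 (limma adjusted p = 0.0205 and 0.0244), and without either 48 h array DPPA5 was called at neither time.

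Other neighbours had smaller or negative ratios at 48 h. AP1B1, on the other side of RFPL1, fell by 0.96 ± 0.14 at 48 h and rose by 1.45 ± 0.11 at 24 h (limma adjusted p = 0.0151 and 0.016). SLC6A9 beside KLF17 fell by 1.77 ± 0.46 at 48 h (limma adjusted p = 0.0215). PRAME beside ZNF280A fell by 0.59 ± 0.17 at 48 h and 0.73 ± 0.03 at 24 h (limma adjusted p = 0.0277 and 0.0291). PRAME did not pass at 48 h with one spread (limma adjusted p = 0.0644) or with quantile normalization (0.0687). ZNF551 beside ZSCAN4 fell, with -0.84 and -1.36 at 48 h (limma adjusted p = 0.0357), and ZNF211 on its other side was at 0.27 ± 0.08 (limma adjusted p = 0.0959). Beside LEUTX, CLC was listed at 0 on all arrays and DYRK1B was at 0.13 ± 0.19 at 48 h, which did not pass (limma adjusted p = 0.323), and fell by 0.61 ± 0.05 at 24 h (limma adjusted p = 0.0412). Without 48 h replicate 2 the 48 h calls of AP1B1 (limma adjusted p = 0.0571) and ZNF551 (0.0856) were lost.

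Over the 4 arrays, the gene whose ratios were nearest to those of ZSCAN4 was S100A6, a calcium-binding protein gene, with a root mean square difference of 0.29. PAGE2 (0.59), AGR2 (0.69), PAGE5 (0.69) and TRIM49 (0.70) followed. For LEUTX the nearest were RBMY1E (0.17), FAXDC2 (0.23), CT45A1 (0.25), PTN (0.26) and SPANXA1 (0.29). PAGE2, PAGE5, CT45A1 and SPANXA1 are cancer-testis genes, RBMY1E is a spermatogenesis gene and TRIM49 is itself a reported DUX4 target. The measure spans only 4 arrays that share dyes and a platform, and it is a description.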

How the data were processed

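The log10 ratios of the 4 arrays, as deposited, fill 45220 rows, 43376 of them with values. Per the submitters' processing notes they came from Agilent Feature Extraction 8.5.1.1, and the settings are not given in the sources used here. Base and direction are not stated with the values. Following the scanner software's usual output they were taken as log10 (Cy5 / Cy3) and turned into log2 ratios by the factor 3.32. Column medians were 0. Between 6011 and 6695 features an array were listed at exactly 0.

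Features were named from the platform annotation and the GRCh38.p14 gene table, and the 31332 with 1 symbol were averaged into 18334 genes. Features with several symbols (93) or none (11951) were left out, so a gene called measured had a feature with 1 symbol. No filter on dim features was set, as channel intensities were not analysed here, and the number of arrays limits the precision. Limma 3.58.1 in R 4.3.3 fitted 1 mean per time over all arrays (2 residual and 0.735 prior degrees of freedom), with Benjamini-Hochberg adjustment over all genes. It was tested on simulated data with independent noise on each array, which cannot show whether the real replicates are independent. Members and lists were chosen with earlier results of these data known, and members were not tested. Named genes were all members, the 4 of each list with the lowest p at each time, the neighbours, and the 5 genes nearest to ZSCAN4 and to LEUTX. Alternatives were a replicate block, centring, scaling, quantile normalization, median of features, removal of zeros, robust moderation, a 2-fold threshold, arrays of that time only and each array left out. Averaging features of one accession first was added after seeing the data. Figures were drawn with matplotlib 3.10.9.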

Additional observations from a re-analysis of the deposited data

Results flagged for a closer look

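Of 61 named genes that are not members, 16 had ratios that differed between 48 h and 24 h in the limma test of the difference itself, 10 with the larger ratio at 48 h and 6 with the smaller. Over all genes 23.0% were called in this test. Many of the 61 were named by their p-values in these data, and SPANXA1 and CT45A1 by their likeness to LEUTX over these arrays. The count is thus a description, and the differences of SPANXA1 and CT45A1 are not independent of that choice. The differences, 48 h minus 24 h, were 2.66 for PRM1, 2.37 for NANOG, 1.80 for ACRV1, 1.41 for SPANXA1, 1.31 for CT45A1 and 1.08 for ZSCAN5A. They were 0.85 for ZSCAN1, 0.80 for DPPA2, 0.67 for ZSCAN16 and 0.53 for MBD3. They were -3.40 for RFPL4B, -2.41 for AP1B1, -2.35 for SLC6A9, -2.23 for TRIM28, -1.44 for CHD4 and -1.16 for KLF4. With the arrays brought to one spread, SPANXA1 turned to -0.11 and CT45A1 to -0.17.

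Among these, RFPL4B was the only other reported DUX4 target, and its difference is against 2 values listed at 0, so it and its test show no change of level. AP1B1 passed the limma test in opposite directions at the 2 times. TRIM28 did so too, but its RefSeq feature was below 0 at both, at -0.57 at 48 h and -0.19 at 24 h. None of the 16 passed in the difference without 24 h replicate 1 or without 24 h replicate 2.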

How the results depend on the processing

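Of 20 member means, 16 moved by more than the SD between arrays with one spread, 7 with quantile normalization and 3 with another centring. Leaving out 1 of 2 arrays, or averaging features another way, cannot move them that far by construction. Their median was 4.08 at 48 h and 3.36 at 24 h. It was 3.53 and 3.90 with the arrays brought to one spread, 3.86 and 3.56 with quantile normalization, and between 3.86 and 3.92 at 48 h with 1 of its arrays left out. No member value was at exactly 0. The limma counts depended on the 24 h arrays, and replicates differed by a median of 0.332 at 48 h and 0.126 at 24 h. The 7116 genes called at 48 h became 0 from the 48 h arrays alone (6313 at an unadjusted p under 0.05) and 845 with a 2-fold threshold. The 4446 at 24 h became 7516 with one spread (the median absolute deviation made equal), 7387 with quantile normalization and 214 with a 2-fold threshold. The 4211 in the difference became 6577 with another centring, 6620 with one spread, 6879 with quantile normalization, 7361 without zeros, 2609 with robust moderation and 54 with a 2-fold threshold. With 1 array left out the counts ran from 0 to 8303 at 48 h, from 0 to 6655 at 24 h and from 0 to 7786 in the difference. Both 0s at each time came from leaving out a 24 h array, as the spread then came from the 48 h arrays alone. A replicate block gave 0 calls everywhere (8152, 6503 and 7063 at an unadjusted p under 0.05 at 48 h, 24 h and in the difference). Nothing in the labels says that the numbers pair the arrays, and the deviations of same-numbered arrays correlated with r = -0.03 across genes. The 13 other DUX4 targets called higher at 48 h became 0 from the 48 h arrays alone (15 at an unadjusted p under 0.05) and 0 with the replicate block (12), and ran from 0 to 11 with 1 array left out. The 14 at 24 h became 7 with a 2-fold threshold and 0 with the replicate block (14), and ran from 0 to 14 with 1 array left out. No call of a named gene at either time reversed its sign. Of the differences between times described for named genes, SPANXA1 (-0.11) and CT45A1 (-0.17) reversed with one spread. The replicate block leaves fewer residual degrees of freedom by construction. Apart from that, fewer arrays in a fit and the size asked for by a threshold, the cause of these changes was not tested. The number of arrays and the missing intensities limit all values.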
